A study of Mus musculus with 12 samples.

Results

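The genes of small GTPases and of the proteins that switch them on and off were followed in the mouse hippocampus after loss of CREB and CREM and after a kainate injection. Members were all probe sets whose single gene symbol in the platform annotation begins with Rab and a digit, Arf and a digit, Arhgap, Arhgef, Tbc1d, Rasgrp, Rasa, Rapgef or Dock. Of 11868 probe sets on the array, 78 met this rule, and they stand for 61 gene symbols. A log2 value of 4 or more on 3 or more of the 12 arrays was reached by 35 of them (44.9%), which read 32 genes, against 3541 of 11868 (29.8%) over the array. Of the 11868, 4001 have no symbol and could not be members. Counted by gene, 32 of 61 members reached this level, against 2387 of 5928 genes over the array. The symbols are matched by their letters alone, so the 78 also include the antisense or opposite-strand transcripts Arhgap27os3 and Rab10os and the gene Rab5if, which are no GTPases, and all 3 of these were dim.

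The 12 arrays (Affymetrix, array C of the murine U74 set) form 4 groups of 3. Control mice received saline, control mice received kainate, mutant mice received saline, and mutant mice received kainate. The mutants are described only as lacking CREB and CREM. Neither the alleles nor any promoter driving a deletion is given in the sources used here. Kainate, an agonist of ionotropic glutamate receptors that evokes seizures, was injected into the peritoneum at 20 mg/kg, and hippocampi were taken after 1 hour. All mice were male and female littermates of 5 to 6 weeks, caged singly and handled for 5 days. Each array holds RNA pooled from 3 animals, so the spread given here is between pools. In such tissue RNA, fewer cells of a type and less RNA per cell cannot be told apart.

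Small GTPases are molecular switches that are active when bound to GTP and inactive when bound to GDP. Exchange factors (GEFs) load GTP, and GTPase-activating proteins (GAPs) speed its hydrolysis. Rab proteins mark the membranes of the secretory and endocytic routes and, in neurons, the vesicles that carry transmitter and receptors, while Rac and Cdc42 shape the actin of dendritic spines and Ras and Rap couple receptors to kinase cascades. CREB is a transcription factor activated by neuronal activity that binds the cAMP response element, with CREM a close relative.

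Some properties of the arrays touch every value below. The array of mutant kainate replicate 3 had a mean of 7.44 over tested probe sets that average above log2 7, against 8.38 to 8.60 on the other 11. Of the 14 members above log2 7 on the other arrays, 13 read lower on it than the other arrays of its group on average, with a median gap of -1.30 (-1.02 over all tested probe sets of that brightness). Over all tested probe sets the median gap was 0.10 below log2 5 and -0.48 from 5 to 7. Above 7 lay 14 of the 35 members but only 756 of the 3541 tested probe sets. Shares and medians over all tested probe sets are therefore not matched to the members' brightness. Replicate 1 arrays differ from those of replicates 2 and 3 as a batch seen in the data: 9 of 35 members averaged over 0.5 higher and 2 over 0.5 lower in replicate 1, against 12.1% and 3.90% of all tested probe sets. The array labelled control kainate replicate 3 read 12.95 for Gfap, an astrocyte filament gene, against 10.75 to 11.59 on the other control arrays, and mutant kainate replicate 3 read 11.55 against 12.23 to 13.03 on the other mutant arrays. These are called the doubted arrays here, and differences of members that moved by over 1.5 times without one or both are also given without them. Creb1 read 4.77 to 5.00 on control and 4.83 to 5.11 on mutant arrays. Crem read 4.37 to 4.57 on control and 4.51 to 4.83 on mutant arrays, with mutant minus control after saline at 0.24 ± 0.08 (adjusted p = 0.385), so neither gene read lower in the mutants. Whether their probes lie in a deleted part is not known, so these values check no label. Of the markers of hippocampal excitatory neurons fixed for the tissue, 3 of the 5 genes on the array reached the dim level (Slc17a7, C1ql3 and Nrgn, with array means of 8.56 to 9.68), and Spink8 and Zbtb20 did not.

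**Figure D1:**
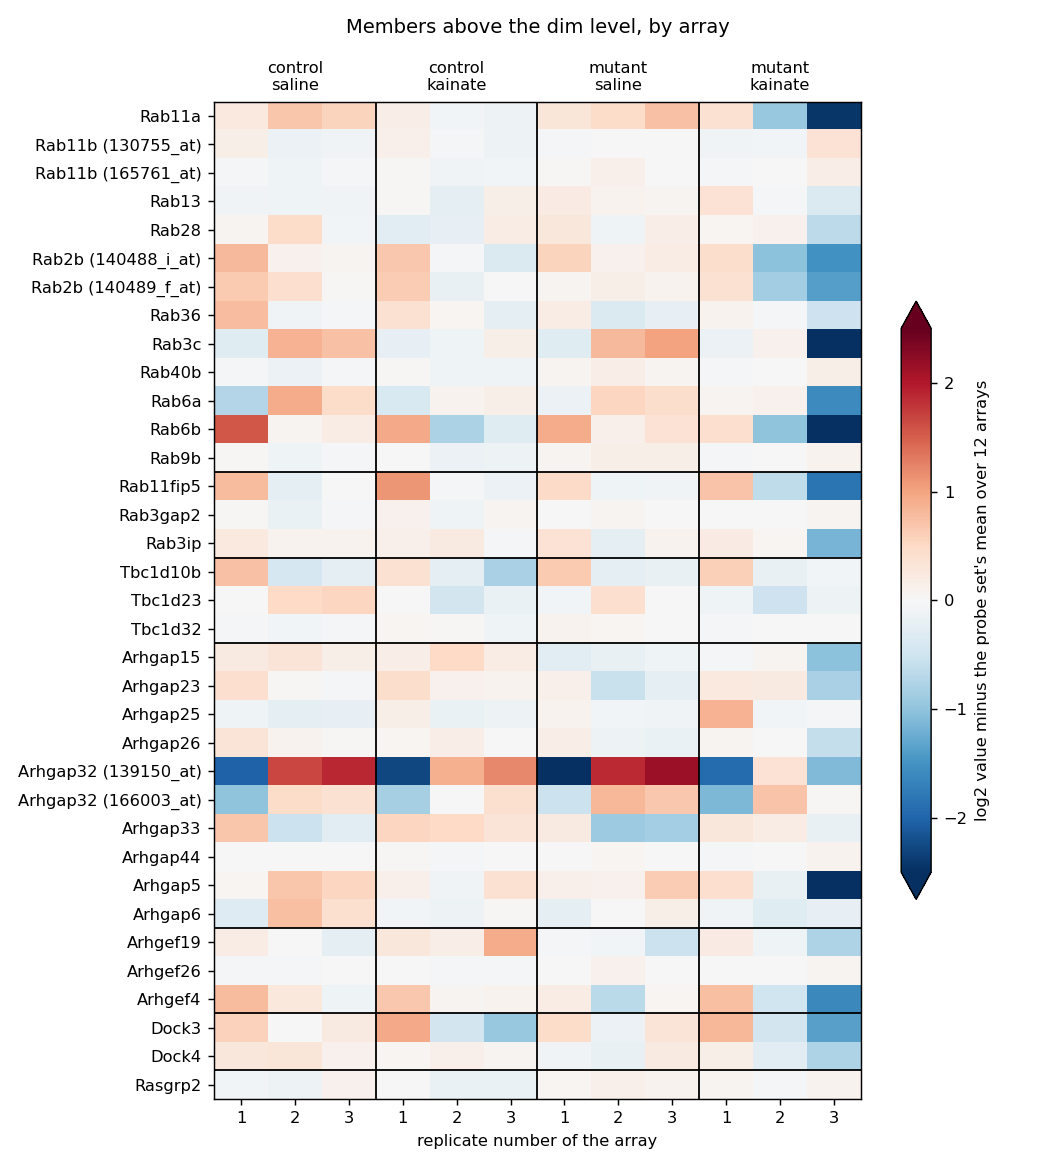
Log2 value of each of the 35 member probe sets above the dim level minus its own mean over the 12 arrays, by group (columns, 3 arrays each) and by role (blocks of rows). The column of mutant kainate replicate 3 is low for most bright members, and Arhgap32 is low on all 4 replicate 1 arrays.

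No member passed the threshold (adjusted p under 0.05 by limma over all 3541 tested probe sets) in any of 7 comparisons. The smallest adjusted p of a member was 0.247, in mutant against control averaged over treatments. What follows therefore gives levels and differences with their errors, with no member called. A difference is written as kainate minus saline or as mutant minus control, on the log2 scale with its standard error from the fit.

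CREB and CREM bind the cAMP response element, TGACGTCA, or its 5-base core TGACG. For that reason the promoter is printed of each of the 7 members that reached an unadjusted p under 0.05 in any comparison, in the order of their smallest p, a rule set after the values were seen. The sequences are from RefSeq (GRCm38.p6) and run 5′ to 3′ over the 250 bases before the first start that the table lists for the gene, with the core on either strand (TGACG or CGTCA) in capitals. They are Tbc1d23 at chr16:57231467-57231716 (minus strand), Arhgap15 at chr2:43748574-43748823 (plus strand), Rab9b at chrX:136868557-136868806 (minus strand), Rab40b at chr11:121388252-121388501 (minus strand), Rab11a at chr9:64737757-64738006 (minus strand), Rasgrp2 at chr19:6399625-6399874 (plus strand) and Arhgef19 at chr4:141244838-141245087 (plus strand).
Tbc1d23: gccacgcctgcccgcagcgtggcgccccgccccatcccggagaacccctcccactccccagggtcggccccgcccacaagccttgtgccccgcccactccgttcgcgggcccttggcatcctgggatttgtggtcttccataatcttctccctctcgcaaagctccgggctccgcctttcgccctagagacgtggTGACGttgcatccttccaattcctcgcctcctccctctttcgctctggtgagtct
Arhgap15: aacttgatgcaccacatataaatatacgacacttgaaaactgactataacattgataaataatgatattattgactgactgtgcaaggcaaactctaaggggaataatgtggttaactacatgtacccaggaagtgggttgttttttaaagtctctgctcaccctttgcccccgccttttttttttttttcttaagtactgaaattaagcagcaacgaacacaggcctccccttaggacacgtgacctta
Rab9b: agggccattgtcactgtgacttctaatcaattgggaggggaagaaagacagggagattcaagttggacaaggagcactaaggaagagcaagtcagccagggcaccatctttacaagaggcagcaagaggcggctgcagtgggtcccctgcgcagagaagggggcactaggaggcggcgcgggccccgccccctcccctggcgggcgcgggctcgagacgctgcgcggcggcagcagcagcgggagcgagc
Rab40b: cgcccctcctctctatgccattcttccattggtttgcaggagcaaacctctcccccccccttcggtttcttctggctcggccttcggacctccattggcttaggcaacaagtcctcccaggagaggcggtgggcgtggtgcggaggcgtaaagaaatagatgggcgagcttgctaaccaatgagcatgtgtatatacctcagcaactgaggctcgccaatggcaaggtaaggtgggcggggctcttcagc
Rab11a: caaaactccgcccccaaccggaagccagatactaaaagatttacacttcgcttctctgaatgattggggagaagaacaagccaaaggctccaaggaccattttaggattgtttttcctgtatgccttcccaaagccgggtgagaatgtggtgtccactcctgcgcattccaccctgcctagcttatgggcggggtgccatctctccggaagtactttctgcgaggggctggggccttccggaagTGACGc
Rasgrp2: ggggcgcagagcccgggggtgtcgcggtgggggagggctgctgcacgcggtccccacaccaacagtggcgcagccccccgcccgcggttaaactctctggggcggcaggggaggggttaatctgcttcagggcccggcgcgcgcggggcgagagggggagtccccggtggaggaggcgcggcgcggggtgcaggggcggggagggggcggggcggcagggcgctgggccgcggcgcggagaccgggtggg
Arhgef19: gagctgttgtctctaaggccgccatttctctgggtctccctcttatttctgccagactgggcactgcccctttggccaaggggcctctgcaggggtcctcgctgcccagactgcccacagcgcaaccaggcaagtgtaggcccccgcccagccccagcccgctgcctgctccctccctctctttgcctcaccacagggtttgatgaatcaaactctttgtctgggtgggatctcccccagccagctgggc
The core begins 55 bases before the start in Tbc1d23 and 6 bases before it in Rab11a, and these letters are not in the printed windows of the other 5 genes. Rab11a has a further match, not printed, just after its start. Tbc1d23, Arhgap15 and Rasgrp2 each have 2 starts in the table, and at the unprinted starts the core was not found. Over windows from 250 bases before to 50 after a start, the whole element was in 0 of 71 member promoters, which cover 51 of the 61 genes, and in 588 of 32851 promoters in the table (1.79%). The core, which is also part of the whole element, was in 19 of 71 member promoters (26.8%), in 12 of 37 promoters of members above the dim level (32.4%) and in 20.8% of all promoters.

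The Rab GTPases, which give membranes their identity, had 23 probe sets for 19 genes, and 13 probe sets for 11 genes reached the dim level. Rab11a, a GTPase of recycling endosomes, read 7.51, 7.97 and 7.83 in control saline, 7.44, 7.19 and 7.15 in control kainate, 7.58, 7.73 and 8.0 in mutant saline, and 7.64, 6.33 and 4.84 in mutant kainate. All 3 control kainate arrays lay below every control saline array, and among the mutants the replicate 1 array after kainate lay within the saline range. Rab6b, a Golgi GTPase of neurons, read 8.73, 7.24 and 7.36 in control saline and 8.12, 6.38 and 6.87 in control kainate. In mutants Rab6b read 8.11, 7.30 and 7.54 after saline and 7.59, 6.17 and 4.66 after kainate. Replicate 1 was the highest array in each group. At each replicate number the kainate array read lower than the saline array in both genotypes, though arrays of the same number need not be pairs. In mutants these differences were -0.52, -1.13 and -2.87, the last with mutant kainate replicate 3. The share of all tested probe sets with this pattern was not counted.

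Rab2b, which acts between the endoplasmic reticulum and the Golgi, was read by 2 probe sets. The brighter read 7.06, 6.36 and 6.32 in control saline, 6.93, 6.21 and 5.89 in control kainate, 6.81, 6.37 and 6.44 in mutant saline, and 6.70, 5.23 and 4.74 in mutant kainate. The other, of a type with probes shared by related transcripts, had group means of 6.01, 5.80, 5.75 and 5.02 in the same order, so both were lowest in mutant kainate. Rab3c, of the Rab3 family on synaptic vesicles, read 7.52, 8.70 and 8.57 in control saline, 7.63, 7.73 and 7.97 in control kainate, 7.53, 8.64 and 8.83 in mutant saline, and 7.69, 7.93 and 5.21 in mutant kainate. Its replicate 1 arrays stayed within 7.52 to 7.69 across the groups.

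Rab6a, a Golgi GTPase like Rab6b, averaged 9.13 ± 0.85 (SD, n = 3, as in all group means below), 8.86 ± 0.29, 9.19 ± 0.37 and 8.44 ± 0.97 in control saline, control kainate, mutant saline and mutant kainate. Rab28, a GTPase of ciliated cells and photoreceptors read by probes shared between transcripts, had 9.75 ± 0.27, 9.50 ± 0.25, 9.71 ± 0.20 and 9.44 ± 0.42. The group means of each gene thus lay within the spread of the arrays. Rab13, known from cell junctions, had 5.23 ± 0.01, 5.30 ± 0.19, 5.44 ± 0.08 and 5.30 ± 0.37. Near the dim level, Rab9b (a late endosome GTPase), Rab40b, Rab36 and both probe sets of Rab11b read between 3.48 and 4.83 on the 12 arrays. Of these, Rab9b and Rab40b ranged by only 0.31 over the arrays, where the median range of the dim probe sets left out by the filter was 0.179.

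Of the Rab partners, Rab11fip5, an effector of Rab11, had means of 6.82 ± 0.53, 6.94 ± 0.69, 6.74 ± 0.33 and 6.06 ± 1.27 in the same order of groups, and averaged 1.15 higher on replicate 1 arrays than on the others. Rab3ip, an exchange factor for Rab8, had 6.38 ± 0.10, 6.34 ± 0.14, 6.31 ± 0.31 and 5.94 ± 0.75. Rab3gap2, a subunit of the Rab3 GAP, had 4.57 ± 0.09, 4.66 ± 0.11, 4.65 ± 0.04 and 4.65 ± 0.03. The wide spread of the first 2 in mutant kainate comes with a low replicate 3 array, at 4.81 and 5.07.

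Tbc1d proteins share the domain of Rab GAPs, and 3 of 9 probe sets reached the dim level. Tbc1d23, a Golgi protein of this family that captures vesicles, read 4.87, 5.39 and 5.42 in control saline, 4.88, 4.43 and 4.71 in control kainate, 4.82, 5.30 and 4.88 in mutant saline, and 4.78, 4.37 and 4.76 in mutant kainate. The arrays of replicate 1 read alike in all groups, and those of replicates 2 and 3 were lower after kainate in both genotypes. Tbc1d32, a ciliary protein, ranged by 0.19 over all 12 arrays, and Tbc1d10b, a Rab GAP, averaged 0.88 higher on replicate 1 arrays.

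Among the Arhgap genes, 10 of 20 probe sets for 9 genes reached the dim level. Arhgap15, a GAP for Rac, read 8.23, 8.32 and 8.15 in control saline, 8.18, 8.51 and 8.20 in control kainate, 7.74, 7.82 and 7.89 in mutant saline, and 7.98, 8.08 and 6.98 in mutant kainate. All 6 mutant arrays lay below all 6 control arrays. Arhgap33, a GAP for Cdc42 with a sorting nexin domain, read 9.02, 7.80 and 8.06 in control saline, 8.88, 8.83 and 8.65 in control kainate, 8.57, 7.43 and 7.49 in mutant saline, and 8.61, 8.53 and 8.16 in mutant kainate. Replicate 1 was alike across treatments, while in replicates 2 and 3 the kainate arrays were higher.

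Arhgap32, a GAP tied to NMDA receptors, showed the widest range of any member, 4.87 on one of its probe sets. That probe set read 3.85, 3.6, 3.14 and 3.95 on the replicate 1 arrays and 4.77 to 8.01 on the other 8. Its other bright probe set averaged 6.47 on replicate 1 arrays and 7.78 on the others (a difference of -1.32), so both share the direction with replicate number. Arhgap5 had means of 7.31 ± 0.33, 7.02 ± 0.23, 7.17 ± 0.30 and 6.02 ± 1.72 over the groups in the order above, the last with 4.06 on the replicate 3 array. Arhgap23 (9.32 to 9.76 over the group means) and Arhgap26 (9.85 to 10.16), an endocytic GAP also called GRAF1, were lowest on mutant kainate replicate 3, at 8.74 and 9.43. Arhgap44 stayed between 4.35 and 4.48, and Arhgap6 between 4.21 and 5.29. The brighter probe set of Arhgap25 is of the same shared-probe type as the dimmer one of Rab2b. It reached log2 4 on 3 arrays, all of replicate 1 (4.08, 4.02 and 4.79), and its lowest value was 3.70.

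The exchange factors of the Arhgef and Dock genes gave 3 of 8 Arhgef probe sets and 2 of 6 Dock probe sets above the dim level. Arhgef19, an exchange factor gene, read 5.21, 5.03 and 4.78 in control saline, 5.32, 5.19 and 5.95 in control kainate, 5.01, 4.96 and 4.49 in mutant saline, and 5.24, 4.93 and 4.25 in mutant kainate. Its highest value is on the array labelled control kainate replicate 3. Arhgef4, a Rac and Cdc42 GEF bound by APC, had means of 7.65 ± 0.46, 7.61 ± 0.33, 7.19 ± 0.47 and 6.88 ± 1.18. Dock4, a Rac GEF, had 10.95 ± 0.11, 10.78 ± 0.04, 10.70 ± 0.21 and 10.41 ± 0.46, and the neuronal Rac GEF Dock3 had 7.88 ± 0.29, 7.46 ± 0.99, 7.83 ± 0.32 and 7.28 ± 1.10. Groups overlapped for Arhgef19, Arhgef4, Dock4 and Dock3 in every comparison of 3 arrays with 3. Arhgef26, at the dim level, read 3.93 to 4.10 over the arrays and reached log2 4 on 3 of them. After saline its mutant arrays (3.97, 4.10 and 3.98) lay just above its control arrays (3.96, 3.96 and 3.97).

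The Ras and Rap regulators were nearly all dim. Rasgrp2, a calcium- and diacylglycerol-sensitive GEF for Rap, was the only one of 5 probe sets above the level, with 4.62 to 4.91 over the arrays. Rasgrp1, Rasa1 and both probe sets of Rapgef1 stayed under the filter, as did Arf6, the only Arf gene of the rule on this array. In all, 43 member probe sets were dim, 36 of them on every array, and dim values have no readable order.

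**Figure D2:**
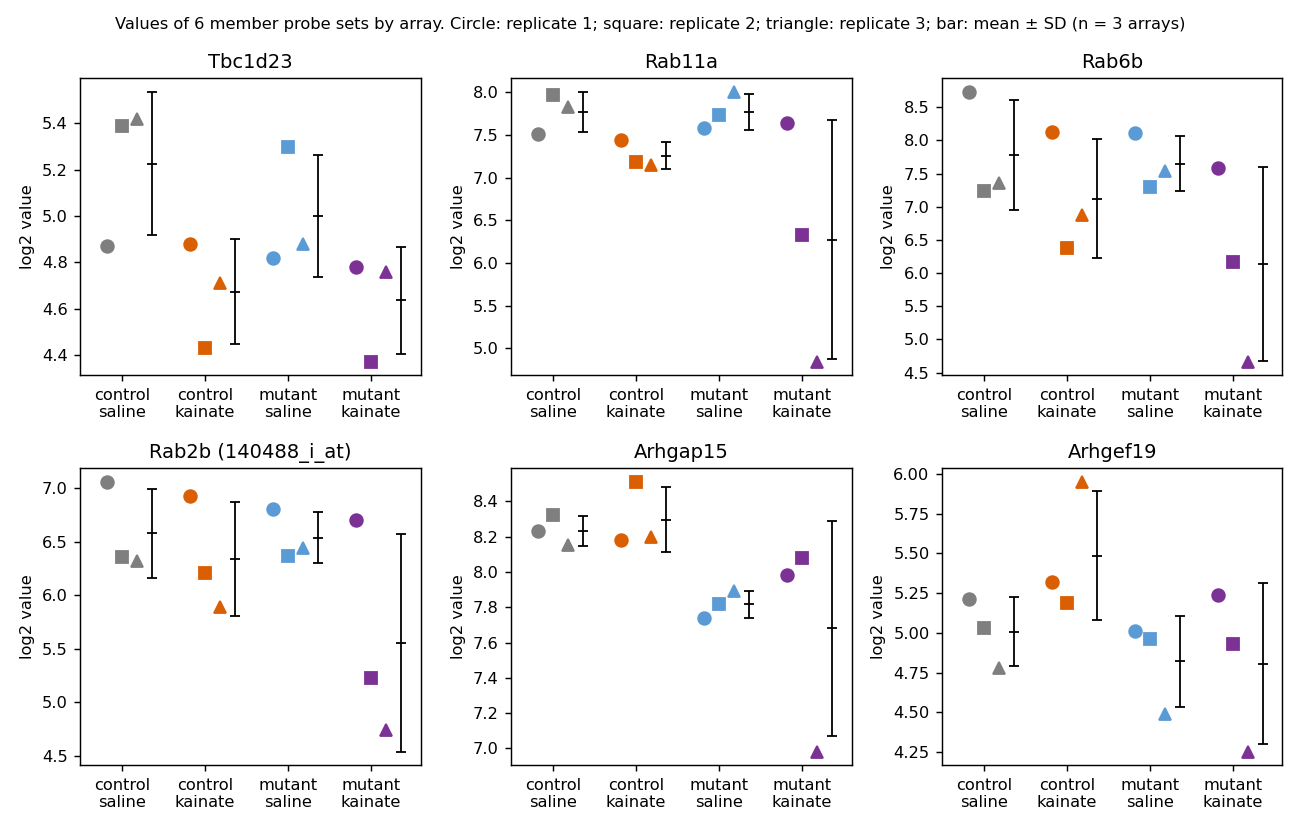
Log2 values of 6 members by group, with symbols for the replicate number and the mean ± SD beside them. For Tbc1d23, Rab11a and Rab6b the kainate arrays of replicates 2 and 3 are lower than the saline arrays of the same number, and for Arhgap15 every mutant array is below every control array.

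In control mice after kainate, 0 of 35 members passed, where 0.0282% of all tested probe sets did. An unadjusted p under 0.05 was reached by 1 member against 4.46% of all, and 1 member, Rab11a, had kainate arrays all below the saline arrays, against 4.63% of all. Tbc1d23 had a mean of 4.67 after kainate and 5.23 after saline, a difference of -0.56 ± 0.20 (95% interval -1.01 to -0.10, adjusted p = 1), which was 0.01 within replicate 1 and -0.84 within replicates 2 and 3. Rab11a differed by -0.51 ± 0.55 (-0.07 and -0.73), Arhgef19 by 0.48 ± 0.28 (0.11 and 0.67, and 0.25 without control kainate replicate 3) and Arhgap33 by 0.49 ± 0.36 (-0.15 and 0.81). For Tbc1d23, Rab11a and Arhgef19 the difference in replicate 1 was the smaller, and for Arhgap33 it had the other sign. The kainate arrays lay all above the saline arrays for 0 members, against 6.02% of all. The fitted difference was below 0 for 22 of 35 members and 46.9% of all, and past 1 in size for 0 members and 0.678% of all. Over the 35 members the median difference was -0.069, against 0.006 over all tested probe sets. The members' median was 0.008 without control saline replicate 1 and -0.008 without control kainate replicate 3.

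In mutant mice after kainate, 0 of 35 members passed, where 0.0282% of all did, and 1 member against 8.47% of all reached an unadjusted p under 0.05. Rab11a had the smallest p, with 6.27 after kainate and 7.77 after saline, a difference of -1.50 ± 0.55 (95% interval -2.74 to -0.27, adjusted p = 0.579). It was 0.06 within replicate 1 and -2.28 within replicates 2 and 3, and -0.78 (adjusted p = 0.574) without mutant kainate replicate 3. Without mutant kainate replicate 1 Rab11a passed at -2.19 (adjusted p = 0.0312), as one of 67 tested probe sets (1.89%; 1.30% lower and 0.593% higher). The result for Rab11a thus turns on single arrays.

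Other Rab genes followed the same arrays. Rab6b differed by -1.51 ± 0.74 (adjusted p = 0.586, -0.52 in replicate 1 and -2.0 over replicates 2 and 3), Rab2b by -0.98 ± 0.47 (-0.11 and -1.42) and Rab3c by -1.39 ± 0.68 (0.16 and -2.16). Without mutant kainate replicate 3 these were -0.77, -0.57 and -0.52. Arhgap5 differed by -1.15 ± 0.68, and by -0.17 without that array. A difference past 1 in size was found for 5 of 35 members and 3.64% of all tested probe sets, and one below 0 for 29 members and 73.5% of all. Kainate arrays lay all below the saline arrays for 2 members, Tbc1d23 and Tbc1d32, against 8.44% of all, and all above for 0 against 1.67%, with Tbc1d32 named after its values were seen. The members' median difference was -0.137, against -0.085 over all, and it was -0.056 without mutant kainate replicate 3 and -0.244 without mutant kainate replicate 1. Neither the shares nor the median over all are matched to the members' brightness. On the same arrays the 3′ probe set of actin exceeded the 5′ one, which reads on how intact the RNA was, by 2.30 and 2.44 in mutant kainate replicates 2 and 3 against 1.83 and 1.74 in the saline arrays of those numbers, and 1.61 against 2.00 in replicate 1. In control mice this excess was 2.27 and 2.20 against 1.82 and 1.74 in replicates 2 and 3, and 1.77 against 1.92 in replicate 1. For Gapdh the excess in mutant replicates 2 and 3 was 0.32 and 0.23 after kainate against 0.01 and 0.06 after saline. In control mice it was 0.15 and 0.12 against 0.12 and 0.02. In replicate 1 it was -0.08 after either treatment in mutants, and -0.09 against -0.15 in control mice. The part of RNA quality in the differences was not tested.

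**Figure D3:**
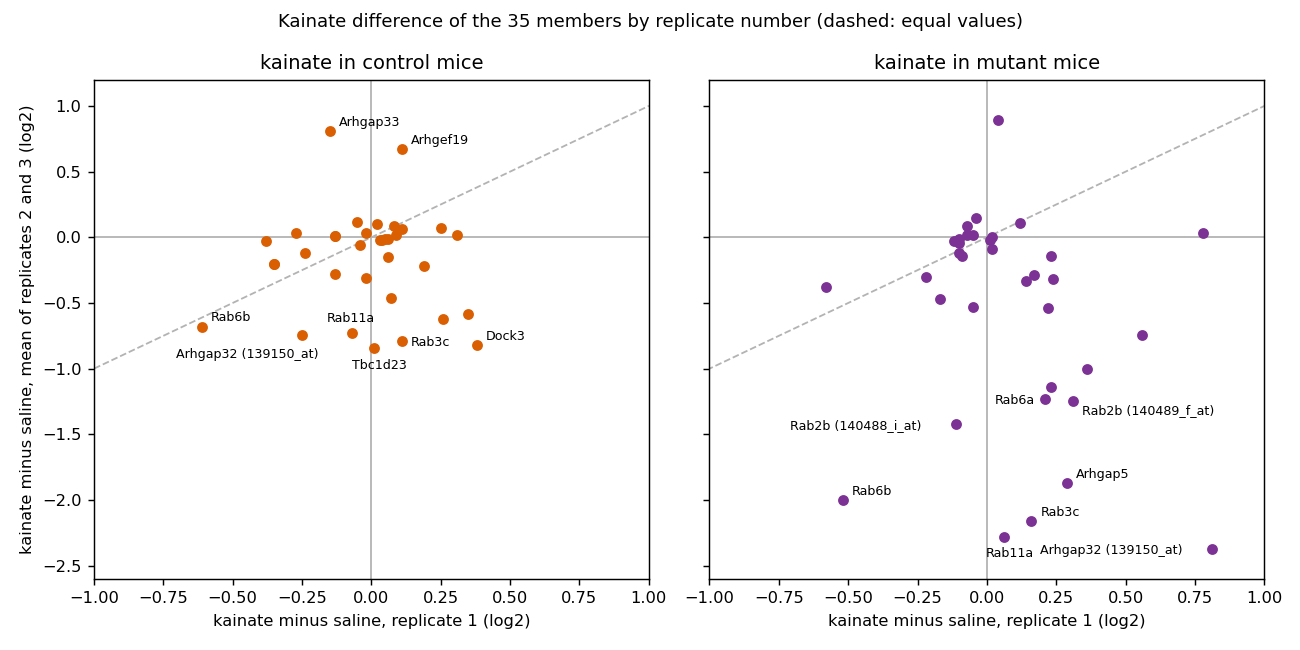
Kainate minus saline difference (log2) of the 35 members within replicate 1 (horizontal) against the mean of replicates 2 and 3 (vertical), in control mice (left) and mutant mice (right). In mutants 9 members lie below -1 in the mean of replicates 2 and 3, of which the third is a doubted array, and 0 in replicate 1.

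In mutants the members' kainate median was 0.02 in replicate 1 and -0.30 over replicates 2 and 3, against -0.03 and -0.11 over all tested probe sets. The mean over replicates 2 and 3 of the mutants lay below -1 for 9 of 35 members, against 9.88% of all. By single replicate number the count was 0 in replicate 1 (0.141% of all), 5 in replicate 2 (2.51%) and 13 in replicate 3 (23.9%), the last with the doubted array. These shares of all are not matched for brightness.

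Averaged over the genotypes, 0 of 35 members passed for kainate, where 0.141% of all did. An unadjusted p under 0.05 was reached by 2 members against 11.3% of all, Tbc1d23 and Rab11a. Kainate arrays lay all above the saline arrays for 0 members against 0.395% of all and all below for 0 against 0.452%, the fitted difference was below 0 for 28 members and 68.4%, and past 1 in size for 2 and 0.96%. Tbc1d23 had -0.46 ± 0.14 (adjusted p = 0.349), with -0.02 in replicate 1 and -0.68 over replicates 2 and 3, and Rab11a -1.01 ± 0.39 (adjusted p = 0.384, -0.01 and -1.51). With array weights from limma both members passed, Tbc1d23 at -0.61 (adjusted p = 0.0151) and Rab11a at -1.0 (adjusted p = 0.0132). So did 13.6% of all tested probe sets (8.84% lower, 4.77% higher). The weight was 0.0968 for mutant kainate replicate 3 and 0.468 to 0.878 for the replicate 1 arrays. It was 0.71 to 3.91 for the other arrays of replicates 2 and 3. Which weights brought the 2 members past the threshold was not tested. Without mutant kainate replicate 1 Rab11a alone of the members passed (-1.35, adjusted p = 0.0461), with 1.58% of all (1.07% lower, 0.508% higher). Neither passed without mutant kainate replicate 3, at -0.49 and -0.65.

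The other members named for this comparison kept their sign across batches only in part. Rab6b had -1.08 ± 0.52 (-0.57 within replicate 1 and -1.34 within replicates 2 and 3) and Rab28 was -0.26 ± 0.16 (-0.29 and -0.25), both below 0 in each batch. Without mutant kainate replicate 3 these were -0.72 and -0.14. Also below 0 in each batch were the brighter probe set of Rab2b at -0.61 ± 0.33 (-0.12 and -0.85, and -0.40 without that array) and Rab9b at -0.08 ± 0.05 (-0.07 and -0.09). The other probe set of Rab2b had 0.15 and -0.78. Rab3c had -0.94 ± 0.48 (0.13 and -1.48) and Arhgap33 0.55 ± 0.26 (-0.06 and 0.85), with opposite signs, and Rab3c had -0.50 without that array. After leaving out both doubted arrays and blocking on the batch, Rab6b had -0.87 ± 0.16 (adjusted p = 0.109). The other members named for this comparison then had adjusted p of 0.289 (Rab2b) to 0.482 (Rab28). With this setting 0 members and at most 29 tested probe sets passed in any comparison, against at most 5 probe sets in the main fit.

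In mutant against control mice after saline, 0 of 35 members passed and 0% of all tested probe sets. An unadjusted p under 0.05 was reached by 2 members, Rab40b and Rab9b, against 12.1% of all, and 8 members had mutant arrays all above the control arrays, against 29% of all. Rab40b had 4.27 in mutants and 4.10 in controls (0.17 ± 0.07, adjusted p = 0.389) and Rab9b 4.80 and 4.63 (0.17 ± 0.07, adjusted p = 0.389). The fitted difference was below 0 for 20 members and 41.3% of all, and past 1 in size for 0 and 0.367%. Both Rab genes lie near the dim level, and the dim probe sets left out by the filter were themselves shifted by -0.001 to 0.047 on the mutant saline arrays and by -0.034 to -0.020 on the control saline arrays. With the arrays shifted to an equal dim level both differences were 0.13.

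Arhgap15 was the 1 member with mutant arrays all below the control arrays after saline, against 5.11% of all. Its means were 7.82 in mutants and 8.23 in controls (-0.42 ± 0.25, 95% interval -0.98 to 0.14, adjusted p = 0.571), with -0.50 in replicate 1 and -0.38 over the others. After kainate they were 7.68 and 8.30 (-0.62 ± 0.25, adjusted p = 0.55, -0.21 and -0.83), and -0.27 without mutant kainate replicate 3. Averaged over treatments the difference was -0.52 ± 0.18 (95% interval -0.91 to -0.12, adjusted p = 0.247), and it was the only member with no overlap between 6 mutant and 6 control arrays, against 0.339% of all that lay lower and 0.339% that lay higher. Without mutant kainate replicate 3 it was -0.34 (adjusted p = 0.356). After leaving out both doubted arrays and blocking on the batch it was -0.37 ± 0.07 (adjusted p = 0.0647).

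Among cell type markers, the 3 measured microglial genes of 4 on the array (Cx3cr1, P2ry12 and Laptm5, with C1qc dim) had array means of 6.92 to 7.20 in control saline, 7.30 to 7.61 in mutant saline, 6.95 to 7.70 in control kainate and 6.72 to 7.64 in mutant kainate. The 5 measured astrocyte genes of 8 (Gfap, Slc1a2, Apoe, Pla2g7 and Mlc1) had 5.96 to 6.22, 6.12 to 6.57, 5.85 to 7.03 and 6.11 to 6.79 in the same order. The microglial means of the saline groups did not overlap, and those of the other groups did. Other marker lists varied too. The 2 measured interneuron genes of 5 had 6.17 to 6.92 in control saline and 7.01 to 7.32 in control kainate, which did not overlap. In mutants they had 5.92 to 6.84 after saline and 5.09 to 7.39 after kainate. The part of these cell types in the difference of Arhgap15 was not tested.

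In mutant against control mice after kainate, 0 of 35 members passed and 0% of all. An unadjusted p under 0.05 was reached by 2 members against 4.72% of all, Arhgap15 and Arhgef19, and 2 had mutant arrays all below the control arrays against 3.78% of all, Arhgap15 and Arhgap33, the latter named after its values were seen. Arhgef19 had 4.80 in mutants and 5.49 in controls (-0.68 ± 0.28, adjusted p = 0.55), with -0.08 in replicate 1, -0.99 over the others and -0.17 ± 0.21 without both doubted arrays. Dock4 had 10.41 and 10.78 (-0.37 ± 0.20, 0.09 and -0.61) and Rab11a 6.27 and 7.26 (-0.99 ± 0.55, 0.20 and -1.59), which were -0.14 and -0.27 without mutant kainate replicate 3. Mutant arrays lay all above the control arrays for 0 members against 2.43% of all. The fitted difference was below 0 for 24 members and 53.5% of all, and past 1 in size for 0 and 2.99%. The members' median was -0.228, against -0.031 over all, and it was -0.020 without that array and -0.356 without mutant kainate replicate 1. The shares and the median over all are not matched to the members' brightness.

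Averaged over treatments, 0 of 35 members passed for genotype and 0% of all. An unadjusted p under 0.05 was reached by 4 members against 19.1% of all. Besides Arhgap15 these were Rab9b (0.14 ± 0.05, 0.00 within replicate 1 and 0.21 within replicates 2 and 3), Rab40b (0.14 ± 0.05, 0.02 and 0.20) and Rasgrp2 (0.13 ± 0.05, 0.10 and 0.15), each with adjusted p of 0.247 to 0.255. All of these 3 range by 0.29 to 0.31 over the arrays and lie near the dim level. The fitted difference was below 0 for 22 members and 51.1% of all, and past 1 in size for 0 and 0.48%. Dock4 had -0.31 ± 0.14 (adjusted p = 0.266, -0.14 and -0.40) and Arhgef19 -0.44 ± 0.20 (adjusted p = 0.268, -0.14 and -0.58). Without both doubted arrays these were -0.19 and -0.18.

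**Figure D4:**
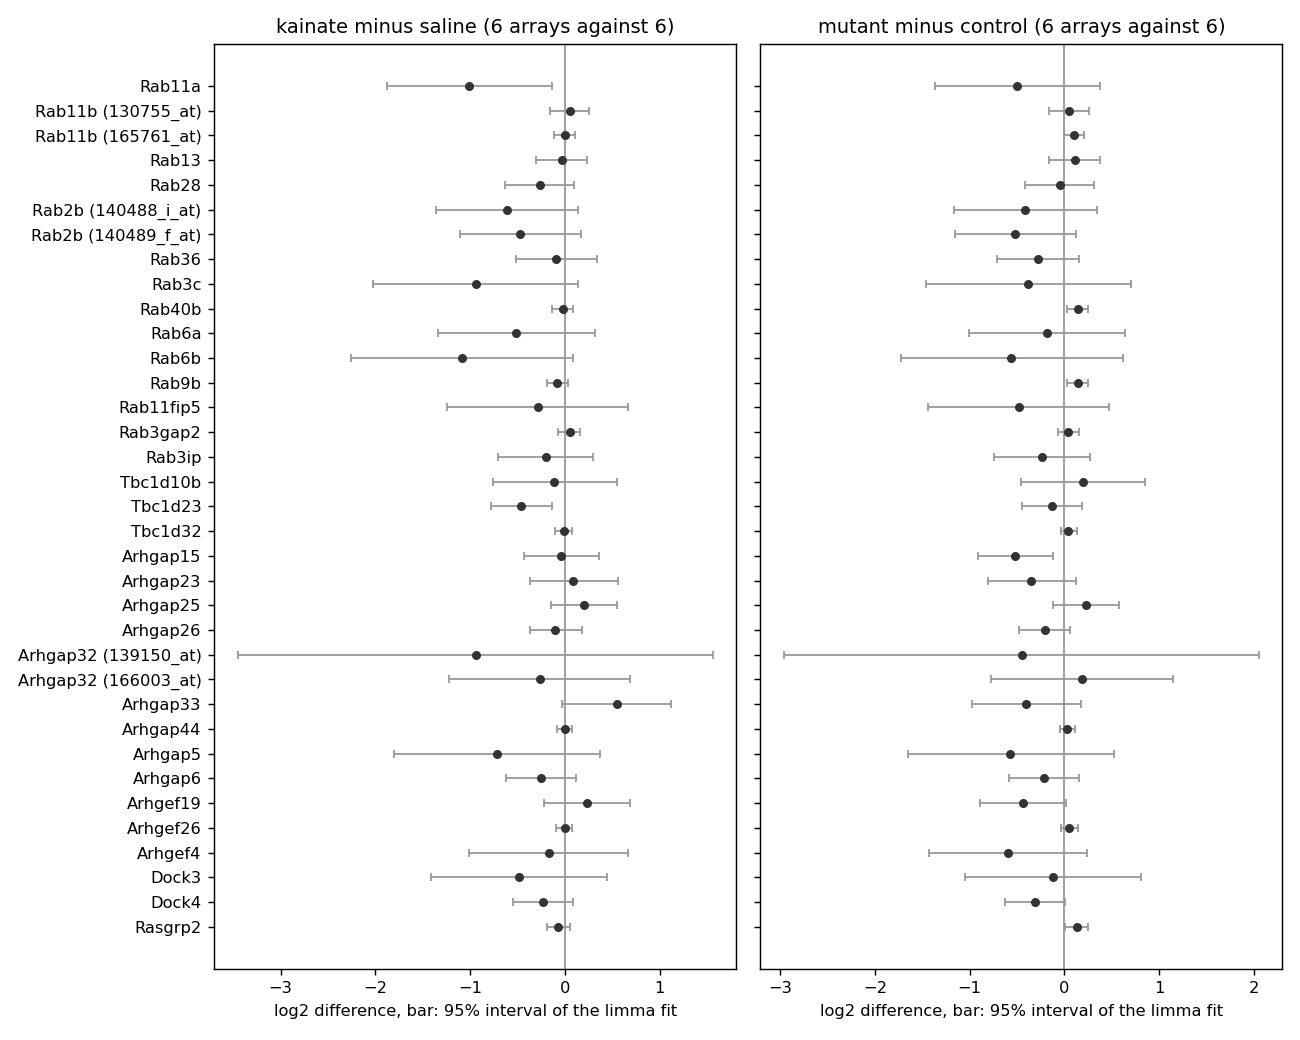
Log2 difference of each of the 35 members with its 95% interval, for kainate minus saline over both genotypes (left) and mutant minus control over both treatments (right). Intervals are narrow for some members near the dim level, such as Rab9b, but not for Tbc1d10b and Rab36, which also lie there. They are wide for Arhgap32, one of whose probe sets parts with replicate number.

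The difference of the kainate effects between genotypes was tested as an interaction. None of 35 members passed, 0% of all tested probe sets did, and 0 members against 0.875% of all reached an unadjusted p under 0.05. Rab11a had -0.99 ± 0.78 (95% interval -2.73 to 0.76, adjusted p = 0.973), which was 0.13 within replicate 1 and -1.55 within replicates 2 and 3, and -0.27 without mutant kainate replicate 3. The fitted interaction was below 0 for 26 members and 73.5% of all, and past 1 in size for 0 and 1.30%. Tbc1d32 had -0.10 ± 0.08, which turned to 0.15 after quantile normalization, and Arhgef19 had -0.50 ± 0.40, which turned to 0.02 without both doubted arrays.

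Other genes of the same pathways were counted from 8 lists of GTPases, regulators and effectors outside the rule. Of 352 list entries 95 were on the array with a single symbol, and 38 were above the dim level. None passed higher or lower in any of the 7 comparisons. At an unadjusted p under 0.05, 1 of the 38 was lower after kainate in control mice, 4 in mutant mice and 4 on average, where 2.68%, 6.92% and 8.11% of all tested probe sets were lower. For genotype, 1 was lower after saline, 2 after kainate and 1 on average, against 1.41%, 3.81% and 4.80% of all. None of the 38 was higher in any of these comparisons, where 1.78%, 1.55% and 3.19% of all were higher for kainate and 10.7%, 0.904% and 14.3% for genotype, in the same orders. For the interaction 0 of the 38 had such a p. Baiap2, a scaffold between Rac and actin regulators, had -0.53 ± 0.14 for genotype after kainate (adjusted p = 0.55), with -0.52 in replicate 1 and -0.53 over the others. In mutants Baiap2 differed after kainate by -0.51 ± 0.14 (-0.48 and -0.52), and by -0.49 without mutant kainate replicate 3. Rasl10a, a Ras-like GTPase, had -0.47 ± 0.15 for kainate in mutants (-0.47 and -0.46, and -0.30 without that array), and Rabif, a binding partner of secretory Rab proteins, -0.64 ± 0.21 in controls (-0.44 and -0.74, and -0.45 without control kainate replicate 3). Trim23, which carries an Arf domain, had -0.80 ± 0.23 for kainate on average, with 0.00 within replicate 1 and -1.20 within replicates 2 and 3, the same split by replicate as Rab11a.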

How the data were processed

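Hippocampal RNA of 12 pools was measured on 12 arrays. The authors deposited log2 values made with GCRMA in R 2.4.1, per the submitters' processing notes. The GCRMA version is not given in the sources used here. Values were used as deposited. The 66 control probe sets were left out, and 3541 of 11868 others passed the filter (log2 4 on 3 arrays). Platform symbols were kept, and all 61 member symbols were found by gene number in the RefSeq table of GRCm38.p6. The group comparisons used limma 3.58.1 (R 4.3.3) with 1 mean per group, no block, 8 residual degrees of freedom and Benjamini-Hochberg adjustment over all tested probe sets. The fit was tested on simulated data. Members and gene lists were chosen with earlier results of these data known. Named for differences are, per comparison, members past the threshold and the 8 with the smallest p, and of other pathway genes up to 3. Levels of any member above the dim level may be named.

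Same-numbered arrays of 2 groups deviated together, with correlations of 0.383 to 0.627 for kainate in control mice, 0.470 to 0.855 for genotype after saline and 0.190 to 0.578 for genotype after kainate, but of 0.479, 0.045 and -0.078 for kainate in mutant mice. These correlations cannot show that the numbers pair the samples. A shift shared by the replicate 1 arrays gives such values without pairing, and correlations between arrays of unlike number were not computed. Alternatives changed the filter, the block, the normalization, the weights, the variance model, the probe sets per gene and the arrays used. With 3 arrays per group, their number limits the precision.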

Additional observations from a re-analysis of the deposited data

How the results depend on the processing

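The count of members past the threshold stayed at 0 in all 7 comparisons with 22 of the 24 alternatives. The exceptions were array weights, with 2 for kainate averaged over genotypes, and leaving out 1 array, which gave 0 to 1 for kainate in mutant mice and 0 to 1 for kainate averaged over genotypes, each 1 without mutant kainate replicate 1. With the replicate number as a block the count was 0 in every comparison (lowest adjusted p of a member 0.259), and the block changed no call of a member. For kainate on average it changed the standard error of Rab6b from 0.52 to 0.30 and left that of Rab11a at 0.39. Leaving out 1 array moved the members' median over -0.356 to -0.020 for genotype after kainate and -0.270 to -0.027 for genotype on average, each highest without mutant kainate replicate 3. For genotype after kainate the median was 0.043 with no filter, -0.424 with the filter at log2 5, -0.002 with array weights and -0.013 after quantile normalization. For genotype on average it was 0.039 with no filter and -0.029 with array weights. With the filter at log2 5 it was -0.368 for kainate in mutant mice and -0.332 for the interaction. The cause of these shifts was not tested, apart from the filter, which leaves 23 members at log2 5 and 78 without it. Of 1300 named differences under an alternative, 1285 kept their direction and side of the threshold, 4 passed newly and 11 reversed. Reversed after quantile normalization were Rab9b for kainate in mutant mice (0.01) and Tbc1d32 for the interaction (0.15). The other reversals were in the interaction, without both doubted arrays (with the batch block or without), at 0.02 for Arhgef19, 0.07 for Rab3c, 0.23 for Arhgap5 and 0.05 for Rab13, and for Arhgap5 also on leaving out 1 array (-1.51 to 0.12, the latter without mutant kainate replicate 3). Dim members have no readable difference.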

Other observations

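A few member probe sets below the filter reached log2 4 on single arrays, and these were named after their values were seen. The dimmer probe set of Arhgap25, a gene of a Rac GAP known from blood cells, read 4.92 on mutant kainate replicate 3 and 2.39 to 2.54 on the other 11 arrays. Rab11fip1, a Rab11 effector gene, read 4.85 on that array, 3.76 on mutant kainate replicate 2 and 2.83 to 3.22 on the others. Arhgef40 read 4.15 there and 3.13 to 3.37 elsewhere. On the same array 36 member probe sets reached log2 4, against 30 to 34 on the others, while its bright members read low. Rasgrp1, a Ras exchange factor gene, reached 4.03 on control saline replicate 2 and 4.17 on mutant saline replicate 3 and read 3.45 to 3.66 on the other arrays.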
